A study of Mus musculus with 14 samples.

Results

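The collagen genes are described here across p65-deficient mouse embryonic fibroblasts that carry different forms of the NF-κB subunit p65. They were chosen by name: every probe other than a control whose gene name on the array has the form Col, a number, a and a number was taken, which gave 78 probes for 40 genes. Each gene was represented by its brightest probe, and a gene was kept if there was 1 or more of the 5 groups whose arrays all had that probe well above background, which held for 28 of the 40. The values of the groups decided which genes were kept, so a gene that is detected in 1 group alone entered through that group.

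All cells were p65(-/-) fibroblasts of the NIH 3T3 type that had been infected with lentivirus, and each line is a pool of infected cells rather than a clone. The groups were cells given wild type p65, the acetylation-deficient mutant KTR (K310/314/315R, with 3 lysines changed to arginine), the mutant K314/315R, or the empty vector pTV, each starved overnight and then kept for 3 h with mouse TNFα (30 ng/ml), and wild type cells left untreated (0 h). There was 1 one-colour array per RNA sample, with 3 samples per group and 2 for K314/315R, and the RNA of the replicates was isolated on different days. No pTV or mutant cells were measured without TNFα, so a difference between lines at 3 h may be present before stimulation. Each of slides 1 to 3 carried 1 array from every group except K314/315R, whereas both K314/315R arrays lay on slide 4, and were read with a later version of the scanner software, so that for K314/315R the slide, the software version and the cell line cannot be told apart. As these are bulk RNA measurements, fewer cells of a type and less RNA per cell cannot be told apart, and p-values measure the spread between RNA isolations. Both probes for Rela, the gene of p65, were well above background on all 14 arrays, pTV included, and their place relative to the deleted part of the gene is unknown here, so they do not check the labels.

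Collagens are proteins of the extracellular matrix built from chains that wind around each other as trimers. The fibrillar types I, II, III, V, XI, XXIV and XXVII form or regulate the striated fibrils, type IV builds the network of basement membranes, type VI the beaded filaments around cells, type VII the fibrils that anchor epithelium to the tissue below, and type VIII a short-chain network. The FACIT collagens sit on the surface of fibrils, and types XIII, XVII, XXIII and XXV span the cell membrane. Fibroblasts are the main source of types I, III, V and VI, and inflammatory signals through NF-κB are known to act on matrix genes in these cells.

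Of the 40 genes, 10 of 11 fibrillar, 5 of 6 basement membrane, 3 of 3 beaded filament, 1 of 1 anchoring fibril, 2 of 3 short-chain, 4 of 9 FACIT, 2 of 4 transmembrane and 1 of 2 multiplexin genes were kept. The 12 that were not kept were Col4a3, Col9a1, Col9a3, Col10a1, Col13a1, Col14a1, Col15a1, Col19a1, Col20a1, Col24a1, Col25a1 and Col28a1, among them Col10a1, a product of hypertrophic cartilage. Of the 28 kept, 25 were well above background on all 14 arrays. The other 3 were Col5a1, for which the spot of KTR replicate 3 was left out as an outlier, Col22a1, which was well above background on the 6 wild type arrays and on 1 other, and Col23a1, which was so on 3 of 3 wild type arrays at 3 h and on 1 at 0 h, on both K314/315R arrays and on none of KTR or pTV. Just outside the rule stood Col25a1, which was well above background on 2 of 3 arrays each of wild type at 0 h, wild type at 3 h and pTV, and Col24a1, which was so on 1 array each of the wild type groups.

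The cells carried the markers of fibroblasts. Of 6 fibroblast markers, 5 (Vim, Pdgfra, Thy1, Fn1 and S100a4) were well above background on all 14 arrays and Pdgfrb on 13. None of the 4 endothelial markers was detected on any array, and the defining leukocyte markers Ptprc, Emr1 and Itgam and the epithelial markers Cdh1 and Epcam (Tacstd1 on the array) were not well above background on any, although Krt8 was on all 14 arrays, Csf1r on 13 and Krt14 on 12. The pTV line stood apart in several markers: against pTV, Pdgfra was 3.41-fold and Pdgfrb 3.96-fold higher, and Thy1 2.29-fold lower, in wild type at 3 h (limma, adjusted p = 3.5e-06, 6.1e-06 and 8.5e-05). The epithelial keratin Krt18 was 5.76-fold lower in wild type (adjusted p = 9.6e-04), with 1 of 3 wild type arrays and 3 of 3 pTV arrays well above background. The adipocyte gene Fabp4 was 2.12-fold higher (adjusted p = 9.2e-04). The adipocyte gene Pparg went the other way (log2 change -0.62, adjusted p = 0.00294), and Adipoq was not well above background on any array. The 3 adipocyte markers summed to 1.42 to 1.90 on pTV and 2.22 to 3.92 on the others, which is not a shift of the whole list. The summed level of the 4 cartilage markers, in units of the array's 75th percentile, was 8.71 to 12.8 on the pTV arrays and 4.14 to 8.19 on the others, and that of the 4 smooth muscle markers was 174 to 237 on pTV and 254 to 345 on the others. Of the smooth muscle markers, Acta2 was higher in wild type than in pTV (log2 change 0.94, adjusted p = 7.8e-04) and Tagln lower (-0.47, adjusted p = 0.0389), and Cnn1 did not pass (-0.12, adjusted p = 0.819), while Matn1 and Myh11 were not well above background on any array. The part of these shifts in the differences from pTV below was not tested.

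Promoter sequences are shown for Col5a3, which differed most between the lines, for Col5a1, which encodes a chain of the same collagen, and for Col7a1, Col4a1 and Col4a2, which were lower in wild type p65 cells than in pTV. They come from RefSeq (GRCm38.p6), run from 250 bases before to 50 bases after the annotated start, and lie at chr9:20815018-20815317 on the minus strand for Col5a3, chr2:27886175-27886474 on the plus strand for Col5a1, chr9:108953336-108953635 on the plus strand for Col7a1, chr8:11312777-11313076 on the minus strand for Col4a1 and chr8:11312555-11312854 on the plus strand for Col4a2. Capitals mark a match on either strand to the CCAAT box (CCAAT) or the core of the GC box (GGGCGG).
Col5a3 promoter: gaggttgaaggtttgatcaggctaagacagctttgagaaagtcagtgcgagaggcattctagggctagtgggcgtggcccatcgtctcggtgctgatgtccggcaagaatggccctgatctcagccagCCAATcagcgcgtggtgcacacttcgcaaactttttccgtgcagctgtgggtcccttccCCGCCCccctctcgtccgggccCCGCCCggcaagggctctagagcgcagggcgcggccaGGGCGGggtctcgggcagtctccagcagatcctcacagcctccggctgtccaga
Col5a1 promoter: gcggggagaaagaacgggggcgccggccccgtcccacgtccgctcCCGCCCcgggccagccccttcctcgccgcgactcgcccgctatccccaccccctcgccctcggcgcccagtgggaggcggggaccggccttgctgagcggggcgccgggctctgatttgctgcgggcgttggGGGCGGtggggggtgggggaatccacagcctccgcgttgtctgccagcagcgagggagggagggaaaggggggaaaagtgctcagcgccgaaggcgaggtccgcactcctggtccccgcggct
Col7a1 promoter: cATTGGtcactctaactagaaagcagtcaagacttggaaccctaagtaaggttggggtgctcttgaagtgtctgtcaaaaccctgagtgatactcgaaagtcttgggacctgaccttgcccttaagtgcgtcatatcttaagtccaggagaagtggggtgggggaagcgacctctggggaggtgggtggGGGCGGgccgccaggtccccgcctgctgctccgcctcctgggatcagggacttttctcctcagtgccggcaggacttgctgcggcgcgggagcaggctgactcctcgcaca
Col4a1 promoter: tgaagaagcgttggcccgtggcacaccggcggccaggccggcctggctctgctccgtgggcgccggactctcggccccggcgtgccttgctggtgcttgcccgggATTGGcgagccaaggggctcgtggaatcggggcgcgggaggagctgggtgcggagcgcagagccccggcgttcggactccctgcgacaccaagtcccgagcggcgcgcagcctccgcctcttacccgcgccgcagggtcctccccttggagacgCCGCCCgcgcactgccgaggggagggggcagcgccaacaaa
Col4a2 promoter: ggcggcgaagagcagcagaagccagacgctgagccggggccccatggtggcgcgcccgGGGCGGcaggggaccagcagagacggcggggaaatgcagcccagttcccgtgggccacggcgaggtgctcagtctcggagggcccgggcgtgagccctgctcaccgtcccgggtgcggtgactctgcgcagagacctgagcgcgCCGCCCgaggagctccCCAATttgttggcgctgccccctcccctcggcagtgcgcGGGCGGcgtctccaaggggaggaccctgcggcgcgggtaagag
The windows of Col4a1 and Col4a2, on opposite strands, share 78 bases, and their annotated starts lie 20 bases apart. Of the 28 kept genes, 23 had a promoter in the table. The κB consensus, the sequence that NF-κB binds, was searched on both strands and matched 2 of the 23 (Col6a2 and Col9a2, 8.7%) and 5.8% of all 32851 promoters, and none of the 5 shown. The GC box core was found in 18 of 23 (78.3%) and in 35.7% of all promoters, the CCAAT box in 10 of 23 (43.5%) and 37.4% of all, TATAAA in 3 of 23 and 13.6% of all, and TGANTCA, the core bound by AP-1, in Col6a1 alone of the 23 and in 7.81% of all. The shares of the 23 count genes and those of all promoters count windows, so they are not in the same unit. A match only describes the letters of this window.

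The first question was which collagen genes differ between TNFα-treated cells given wild type p65 and those given the empty vector at 3 h. As each line is a pool of infected cells, a difference between the pools cannot be told apart from dependence on p65. A gene was called at an adjusted p under 0.05 and a change over 1.8-fold, in a limma fit over all tested probes with Benjamini-Hochberg adjustment. Of the 28 kept genes, 3 were called higher in wild type (Col5a3, Col22a1 and Col23a1), where 4.23% of all tested probes were, and none was called lower, where 2.03% were; at an unadjusted p under 0.05, 5 were lower, beside 13.9% of all probes. Col22a1 and Col23a1 were kept through groups in which they are high and were not well above background on any pTV array, so their calls follow in part from the rule that kept them. Without the limit on the fold, the same 3 were higher, beside 8.01% of all probes, and Col4a1, Col4a2 and Col7a1 were lower, beside 6.8% of all probes. The median log2 change of the 28 genes was 0.08, against -0.03 for all tested probes, and 9 of the 28 had no overlap between the groups' arrays, against 34.4% of all probes.

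Col5a3 encodes the chain of type V collagen with the most restricted expression, and type V collagen sets the diameter of type I fibrils. On the log2 scale relative to each array's 75th percentile, which is the scale of all levels given here, Col5a3 measured 3.56, 3.36 and 3.39 in wild type at 3 h, 3.58, 3.70 and 3.48 in KTR, 3.74 and 3.77 in K314/315R, 3.07, 3.07 and 3.09 in wild type at 0 h, and 1.58, 1.33 and 1.57 in pTV. All arrays of cells given a form of p65 lay above all pTV arrays, with a gap of over 1 log2 unit. Wild type exceeded pTV 3.85-fold in Col5a3 (log2 change 1.94, 95% interval 1.74 to 2.15, adjusted p = 6.5e-08), with differences of 1.98, 2.03 and 1.82 within slides 1, 2 and 3. In KTR it was 4.26-fold higher than in pTV (2.09, interval 1.88 to 2.30, adjusted p = 4.4e-08), and in K314/315R 4.8-fold (2.26, interval 2.03 to 2.50, adjusted p = 6.6e-08). These 3 comparisons share the pTV arrays. Under all 24, 24 and 23 other settings tried, Col5a3 kept its direction and an adjusted p under 0.05.

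A second, dimmer probe of Col5a3 was well above background on no pTV array and on 10 of the 11 others. On it Col5a3 was higher than in pTV by at least 1.7-fold in wild type (log2 change 1.06, adjusted p = 0.00679), by at least 1.94-fold in KTR (1.25, adjusted p = 0.0025) and by at least 1.71-fold in K314/315R (1.07, adjusted p = 0.00873). Both probes thus had Col5a3 lowest in pTV. The untreated wild type cells, which differ from the pTV cells in both p65 and TNFα and were not tested against them, also lay above every pTV array on both probes.

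**Figure D1:**
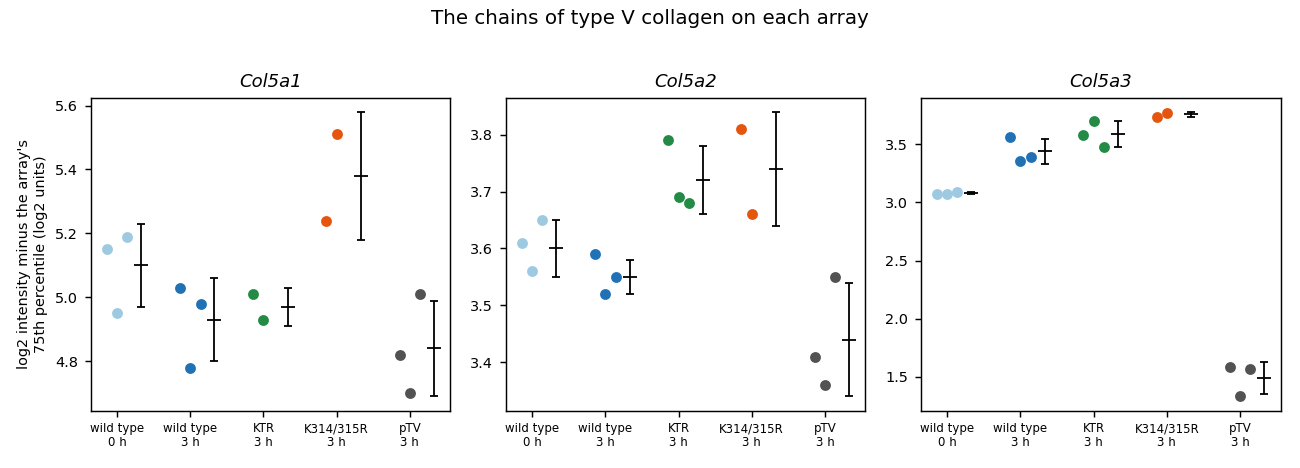
Levels of the chains of type V collagen on each of the 14 arrays (y axis, log2 intensity minus the array's 75th percentile) in the 5 groups (x axis), with the mean and SD as bars beside the points. Col5a3 was at 1.33 to 1.58 in pTV and at 3.07 to 3.77 elsewhere, while Col5a1 and Col5a2 spanned 4.70 to 5.51 and 3.36 to 3.81 over all arrays.

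The chains that combine with Col5a3 did not show this difference. Col5a1, the chain found in nearly all type V trimers, measured 5.03, 4.78 and 4.98 in wild type at 3 h and 4.82, 4.70 and 5.01 in pTV, so the groups overlapped. The log2 change of Col5a1 was 0.09 (interval -0.17 to 0.35, adjusted p = 0.721). Col5a2, the other partner, measured 3.59, 3.52 and 3.55 in wild type and 3.41, 3.36 and 3.55 in pTV, with a log2 change of 0.11 (interval -0.07 to 0.29, adjusted p = 0.453). Both intervals end far below the change of Col5a3. On its second probe Col5a1 was lower in wild type than in pTV (log2 change -0.46, adjusted p = 0.0409), so its probes do not share a direction.

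Col7a1, whose protein forms the anchoring fibrils, was lower in wild type at 3 h than in pTV. It measured 3.42, 3.22 and 3.34 in wild type, 3.83, 3.81 and 3.54 in KTR, 3.57 and 3.57 in K314/315R, 3.63, 3.47 and 3.58 in wild type at 0 h, and 4.13, 3.98 and 4.21 in pTV. All 3 pTV arrays were higher than all others, and no wild type array at 3 h reached any other group. The change was 1.72-fold (log2 change -0.78, interval -1.01 to -0.56, adjusted p = 2.3e-04), just inside the 1.8-fold limit and therefore not called. Within slides 1 to 3 the differences were -0.71, -0.76 and -0.88. It was also lower in KTR than in pTV (-0.38, adjusted p = 0.0279) and in K314/315R (-0.54, adjusted p = 0.00556). Col7a1 in wild type passed without any single array but not with normexp background correction (adjusted p = 0.113). The KTR difference was lost without KTR replicate 3 (adjusted p = 0.0911), pTV replicate 1 (0.0671) or pTV replicate 3 (0.104). It was lost too with normexp background correction (log2 change -0.16, adjusted p = 0.881), with no filter on dim probes (0.0682) and in a fit of the groups compared alone (0.155).

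Col4a1 and Col4a2, whose products form the most widespread type IV trimer, were both lower in wild type than in pTV. Col4a1 measured 1.35, 1.11 and 0.98 in wild type at 3 h and 1.85, 1.60 and 1.70 in pTV (log2 change -0.57, interval -0.87 to -0.28, adjusted p = 0.0124). Col4a2 measured 1.55, 1.44 and 1.44 in wild type and 2.12, 2.03 and 2.04 in pTV (-0.59, interval -0.95 to -0.23, adjusted p = 0.0321). The arrays of these groups did not overlap for either gene, and the within-slide differences were -0.51, -0.49 and -0.72 for Col4a1 and -0.57, -0.59 and -0.60 for Col4a2. Second probes gave -0.54 for Col4a2 (adjusted p = 0.0127) and -0.29 for Col4a1 (adjusted p = 0.14). Col4a1 passed no longer without wild type replicate 3 (adjusted p = 0.0591) or pTV replicate 1 (0.0501), and Col4a2 without any 1 of the 6 arrays compared (adjusted p from 0.0692 to 0.0926). With normexp background correction neither passed (adjusted p = 0.25 for Col4a1 and 0.521 for Col4a2). With no filter on dim probes Col4a2 did not pass (0.0806). The other type IV genes did not pass: the log2 change was 0.02 for Col4a4, 0.19 for Col4a5 and -0.04 for Col4a6.

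Col22a1 and Col23a1 were dim, and no pTV array was well above background for either. Col23a1, a transmembrane collagen, measured -4.44, -4.76 and -4.63 in wild type at 3 h and -6.08, -5.85 and -5.48 in pTV, and was at least 1.11-fold higher in wild type (log2 change 1.19, adjusted p = 0.00515). It measured -4.22, -4.47 and -4.28 in untreated wild type, and in KTR, where it was below background as in pTV, -4.60, -4.96 and -3.96. On its second probe, with 1 of 3 KTR and no pTV arrays well above background, it was at least 1.62-fold higher in KTR than in pTV (adjusted p = 0.00272), and wild type allowed no bound. Col22a1, a FACIT collagen of tissue junctions, measured -3.87, -3.76 and -3.77 in wild type at 3 h, -3.88, -3.72 and -3.85 at 0 h, -4.95, -5.52 and -3.98 in KTR, -4.22 and -4.74 in K314/315R and -5.24, -4.29 and -5.12 in pTV. Wild type lay above KTR, K314/315R and pTV on every array, and against pTV it was at least 1.82-fold higher (log2 change 1.08, adjusted p = 0.049). With normexp background correction neither passed (adjusted p = 1 for each). The call of Col22a1 was lost under 15 of 23 other settings, among them the slides as a block (adjusted p = 0.0523) and leaving out wild type replicate 1 (0.11), 2 (0.115) or 3 (0.12), pTV replicate 1 (0.149) or 3 (0.144), KTR replicate 1 (0.0613), K314/315R replicate 1 or 2 (0.0549 each), or wild type 0 h replicate 1 (0.0669), 2 (0.0658) or 3 (0.0681).

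The major interstitial collagens did not pass the test between wild type and pTV. Col1a1 measured 7.23, 6.98 and 6.99 in wild type at 3 h and 7.16, 6.93 and 6.93 in pTV (log2 change 0.06, interval -0.18 to 0.30, adjusted p = 0.795). Col1a2 measured 8.35, 7.97 and 7.94 in wild type and 8.45, 7.97 and 8.04 in pTV (-0.07, interval -0.44 to 0.31, adjusted p = 0.869). Their arrays overlapped, and the intervals keep both chains of type I collagen within 1.8-fold either way. Col3a1 measured 5.51, 5.02 and 5.17 in wild type and lay between 4.63 and 5.27 in pTV (0.26, interval -0.15 to 0.67, adjusted p = 0.436), and the other genes of the 28 that did not pass lay between -0.56 (Col6a3) and 0.60 (Col27a1).

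With the slide as a block, in a fit on the 12 arrays of slides 1 to 3 that was added after the data were seen, 9 of the 28 genes passed an adjusted p of 0.05 in wild type against pTV, where 28.4% of all probes did. They were Col3a1, Col5a3, Col11a1 and Col23a1, which were higher, and Col4a1, Col4a2, Col6a3, Col7a1 and Col8a1, which were lower. Col6a3, a chain of the beaded filaments, measured 2.02, 1.40 and 1.54 in wild type at 3 h and 2.56, 1.96 and 2.11 in pTV. Its groups overlapped, but on each slide the wild type array was the lower (log2 change -0.56, adjusted p = 2.1e-04 with the block and 0.11 without). Its partners Col6a1 and Col6a2 had log2 changes of 0.11 and 0.07 and passed in neither fit.

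**Figure D2:**
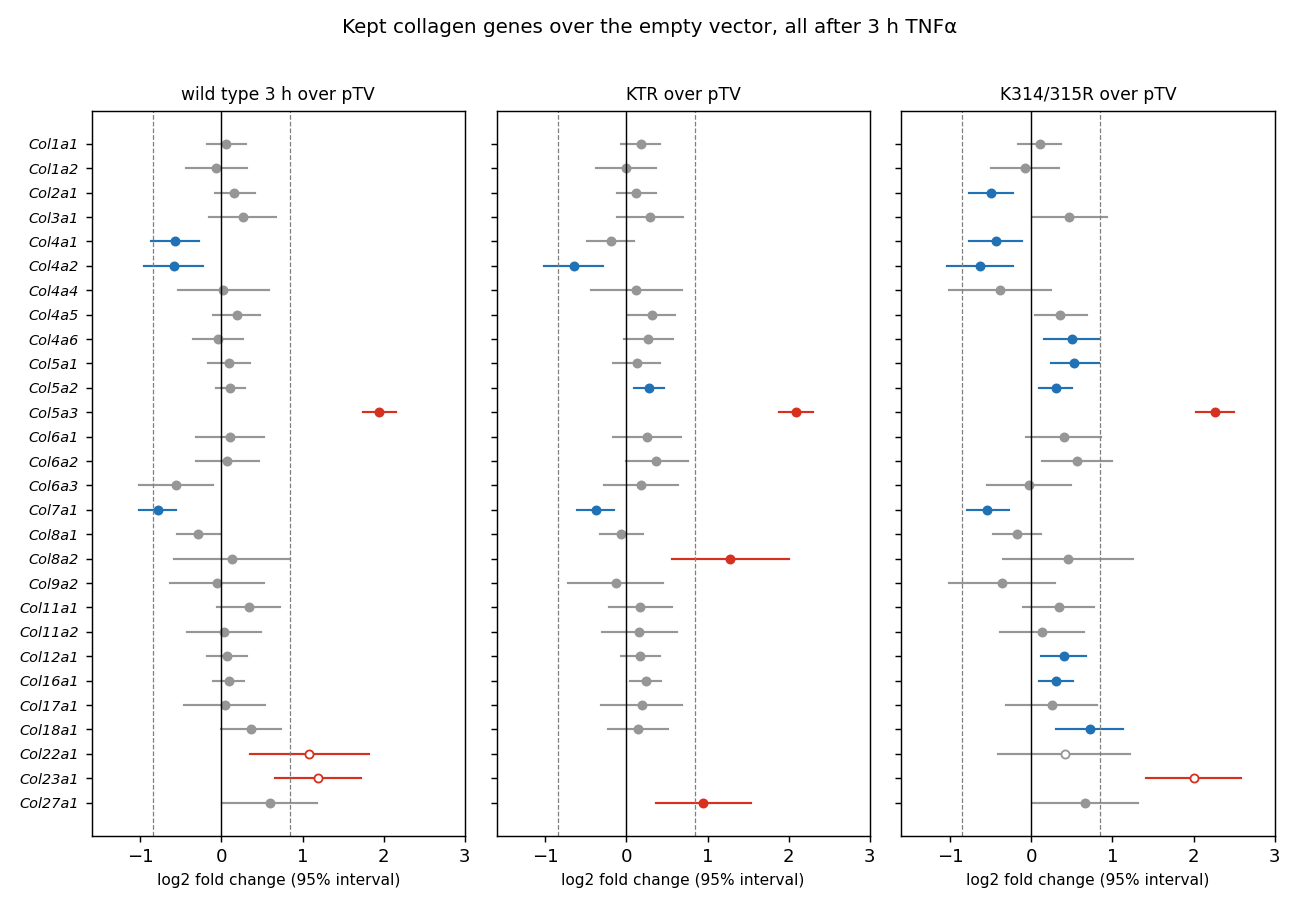
Log2 fold change over pTV with its 95% interval (x axis) for the kept collagen genes (y axis) in wild type, KTR and K314/315R cells after 3 h of TNFα. Red marks genes called at over 1.8-fold (dashed lines) and an adjusted p under 0.05, blue an adjusted p under 0.05 alone, grey neither, and open circles a gene with no array well above background in 1 of the groups; Col22a1 and Col23a1 are left out for KTR, where both groups were below background. Col5a3 stands at 1.94, 2.09 and 2.26.

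The second question was how the mutants that cannot be acetylated at these lysines compare with wild type p65 at 3 h. No collagen gene was called in KTR over wild type, where 0.167% of all probes were called either way, and none passed without the limit on the fold, where 0.235% of all probes did. At an unadjusted limma p under 0.05, 5 of the 28 genes were higher in KTR (Col4a1, Col4a6, Col6a3, Col7a1 and Col8a2) and Col22a1 was lower, which is 6 of 28 beside 9.19% of all probes either way. In K314/315R over wild type none was called, where 1.19% of all probes were, while 9 of 28 had an unadjusted p under 0.05 (17.4% of all probes). Of these, 8 were higher in K314/315R (Col4a6, Col5a1, Col5a3, Col6a2, Col6a3, Col12a1, Col16a1 and Col23a1) and Col2a1 was lower. Without the limit on the fold 1 passed, where 2.21% of all probes did: Col2a1, the fibrillar collagen of cartilage. Col2a1 measured 2.25 on each wild type array at 3 h and 1.49 and 1.69 in K314/315R, below every array of the other groups (log2 change -0.66, interval -0.94 to -0.39, adjusted p = 0.0258). This was lost without any 1 of the 3 wild type arrays (adjusted p from 0.0594 to 0.079), with normexp background correction (0.833) or with a random slide block (0.0724). Without K314/315R replicate 1 or 2, which leaves 1 array in that group, the log2 change was -0.56 or -0.76.

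Against the change of Col5a3 over pTV, the mutants were close to wild type. The log2 change of Col5a3 was 0.15 in KTR over wild type (interval -0.06 to 0.36, adjusted p = 0.703), 0.32 in K314/315R over wild type (interval 0.08 to 0.55, adjusted p = 0.147) and -0.17 in KTR over K314/315R (interval -0.41 to 0.06, adjusted p = 0.391). These p-values do not show that the lines were alike, but the intervals leave out a difference over 1.8-fold. Over the 28 genes the median log2 change was 0.13 in KTR and 0.20 in K314/315R over wild type, against 0.06 and 0.02 for all probes, and the arrays did not overlap for 9 and 13 genes, against 14.7% and 36.2% of all probes.

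Col8a2, a chain of the type VIII network, stood highest in KTR. It measured -1.80, -2.27 and -2.06 in KTR, -2.89, -3.51 and -3.19 in wild type at 3 h, -2.93 and -2.82 in K314/315R, -2.21, -3.57 and -2.38 in wild type at 0 h, and -2.98, -3.85 and -3.14 in pTV. The 3 KTR arrays were above all wild type arrays at 3 h and all pTV arrays, and overlapped with the untreated wild type arrays. It was 2.43-fold higher in KTR than in pTV (log2 change 1.28, adjusted p = 0.0204). KTR over wild type was 1.15 (interval 0.44 to 1.87, adjusted p = 0.243), and with slides 1 to 3 as a block the adjusted p was 0.0193. The call against pTV was lost without KTR replicate 1 (adjusted p = 0.0652), KTR replicate 3 (0.0512) or pTV replicate 2 (0.0912), and the log2 change under normexp background correction was 0.27. Its partner Col8a1 measured 5.10, 5.32 and 4.96 in KTR, 4.95, 5.05 and 4.72 in wild type at 3 h and 5.16, 5.24 and 5.17 in pTV, and had a log2 change of 0.22 in KTR over wild type (adjusted p = 0.625).

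In the fit with the slides as a block, 3 of the 28 genes passed in KTR over wild type, where 2.04% of all probes did, all of them higher in KTR. Besides Col8a2 these were Col6a3 (log2 change 0.74, adjusted p = 0.00115 with the block and 0.248 without) and Col4a1 (0.38, adjusted p = 0.0386). Col6a3 measured 2.65, 2.20 and 2.33 in KTR, 2.41 and 1.96 in K314/315R and 2.00, 1.56 and 1.68 in untreated wild type. The KTR arrays lay above all wild type arrays and overlapped with those of pTV.

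Against pTV, 3 collagen genes were called higher in KTR (Col5a3, Col8a2 and Col27a1), where 3.93% of all probes were, and none lower, where 1.94% were (2 lower at an unadjusted p under 0.05, where 12% of all probes were). Without the limit on the fold, Col5a2 joined them (log2 change 0.28, adjusted p = 0.0422, lost under 16 of 24 other settings, where 9.1% of all probes passed) and Col4a2 and Col7a1 were lower (5.88% of all probes). Col4a2 measured 1.76, 1.47 and 1.02 in KTR, below all pTV arrays (log2 change -0.65, adjusted p = 0.0196). This did not hold without KTR replicate 3 (adjusted p = 0.0519) or pTV replicate 1 (0.0549), 2 (0.0511) or 3 (0.0511). Nor did it hold with normexp background correction (0.412) or in a fit of the groups compared alone (0.109). With slides 1 to 3 as a block, 11 of the 28 genes passed, where 29.7% of all probes did. They were Col1a1, Col3a1, Col4a5, Col5a2, Col5a3, Col6a2, Col8a2, Col16a1 and Col27a1, which were higher in KTR, and Col4a2 and Col7a1, which were lower.

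In K314/315R over pTV, Col5a3 and Col23a1 were called higher, where 5.07% of all probes were, and none was called lower, where 6.43% were (4 lower at an unadjusted p under 0.05, where 19.9% of all probes were). Without the limit on the fold, 8 genes were higher (12.5% of all probes) and 4 lower (13.5%). The 8 were Col4a6, Col5a1, Col5a2, Col5a3, Col12a1, Col16a1, Col18a1 and Col23a1, and the 4 were Col2a1, Col4a1, Col4a2 and Col7a1. Col23a1 measured -4.10 and -3.51 in K314/315R and was at least 1.94-fold higher than in pTV (log2 change 2.00, adjusted p = 2.6e-04). Col18a1, the precursor of endostatin, measured 3.54 and 3.81 in K314/315R and had a median of 2.96 in pTV, with no overlap (0.72, adjusted p = 0.0157), and its second probe gave 0.59 (adjusted p = 0.00115), with 0.33 in wild type (adjusted p = 0.0268) and 0.45 in KTR (adjusted p = 0.00461) over pTV. It was lost without K314/315R replicate 2 (adjusted p = 0.128). The same array ended the calls of Col4a1 (0.342), Col4a2 (0.0665), Col4a6 (0.259), Col5a1 (0.126), Col12a1 (0.255) and Col16a1 (0.223), and K314/315R replicate 1 those of Col2a1 (0.0974), Col4a2 (0.136) and Col5a2 (0.193), while Col5a3, Col7a1 and Col23a1 passed without any single array. Of the genes higher or lower without the limit on the fold, Col5a3 alone passed with normexp background correction. Col23a1 (log2 change 0.23, adjusted p = 0.972), Col7a1 (adjusted p = 0.556) and Col18a1 (0.579) were among the genes that did not. Leaving out 1 pTV array ended the calls of Col4a1, Col4a2, Col4a6, Col5a1, Col5a2, Col12a1 and Col16a1 for at least 1 of the 3 (adjusted p from 0.0502 to 0.119), and Col4a1 did not pass under 16 of 23 other settings. Among the 28 genes 19 had no overlap between K314/315R and pTV, against 49.7% of all probes, and the median log2 change was 0.32 against -0.01.

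Some second probes of collagen genes gave another picture in K314/315R. Col1a2 measured 8.10 and 8.04 in K314/315R on its bright probe (log2 change -0.02 over wild type, adjusted p = 0.979), but on a dim probe -4.24 and -5.16 against -2.97, -3.26 and -2.87 in wild type (-1.66, adjusted p = 0.0126). A dim probe of Col11a1 was below background on both K314/315R arrays and at least 1.29-fold lower than in wild type (-1.11, adjusted p = 0.0321), where the brighter probe had a log2 change of 0.00. The second probe of Col5a1 was lower in K314/315R than in pTV (-0.61, adjusted p = 0.0118) and the first higher (0.53, adjusted p = 0.0138). The mean of all tested probes turned the sign of 2 genes in K314/315R over pTV, to -0.04 for Col5a1 (adjusted p = 0.974) and -0.37 for Col4a6 (adjusted p = 0.542).

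Between the mutants no collagen gene was called in KTR over K314/315R, where 2.46% of all probes were, while 5 of 28 had an unadjusted p under 0.05 (21.4% of all probes), and Col2a1 alone passed without the limit on the fold (log2 change 0.62, adjusted p = 0.0191; 5.3% of all probes). This was lost without K314/315R replicate 1 (adjusted p = 0.0941) or 2 (0.0717) or with a random slide block (0.052). Col18a1 measured 3.33, 2.63 and 3.32 in KTR, all below the K314/315R arrays, with a log2 difference of -0.58 (adjusted p = 0.099).

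The third question was the response of wild type cells to 3 h of TNFα. No collagen gene was called at 3 h over 0 h, where 1.55% of all probes were, and none passed without the limit on the fold, where 4.67% did. At an unadjusted limma p under 0.05, Col5a3 and Col27a1 were higher and Col1a1 and Col7a1 lower, which is 4 of 28 beside 17% of all probes. The median log2 change of the 28 genes was -0.15, against -0.04 for all probes, with 22 of 28 below 0, and 27 of 28 differed by less than 0.5 on the log2 scale, as did 92.2% of all probes. The exception was Col27a1, a fibrillar collagen of cartilage, which measured -3.10, -3.25 and -3.26 at 0 h and -2.17, -2.53 and -2.35 at 3 h, with no overlap. It was 1.81-fold higher at 3 h (log2 change 0.85, interval 0.27 to 1.43, adjusted p = 0.105), by 0.93, 0.72 and 0.91 within the slides.

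With slides 1 to 3 as a block, 4 of the 28 genes passed at 3 h over 0 h, where 14.8% of all probes did. Col27a1 (adjusted p = 0.033) and Col5a3 (log2 change 0.36, adjusted p = 0.0292 with the block and 0.0544 without) were higher, and Col1a1 (-0.25, adjusted p = 0.0155 with the block and 0.271 without) and Col11a1 (-0.33, adjusted p = 0.0444) were lower. The second, dimmer probe of Col5a3 did not show the rise (log2 change 0.02, adjusted p = 0.983 without the block). Col1a1 measured 7.45, 7.27 and 7.24 at 0 h, above the 3 h array of the same slide by 0.22, 0.28 and 0.25. Col27a1 was also called higher in KTR than in pTV. It measured -1.88, -1.97 and -2.13 in KTR and -2.72, -3.65 and -2.47 in pTV (log2 change 0.95, adjusted p = 0.0313), but this was lost without KTR replicate 1 (adjusted p = 0.0821), 2 (0.0678) or 3 (0.054) or pTV replicate 2 (0.0911), without which the log2 change was 0.60. It was lost too with normexp background correction (log2 change 0.26, adjusted p = 0.881), with no filter on dim probes (0.0661) and in a fit of the groups compared alone (0.121).

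**Figure D3:**
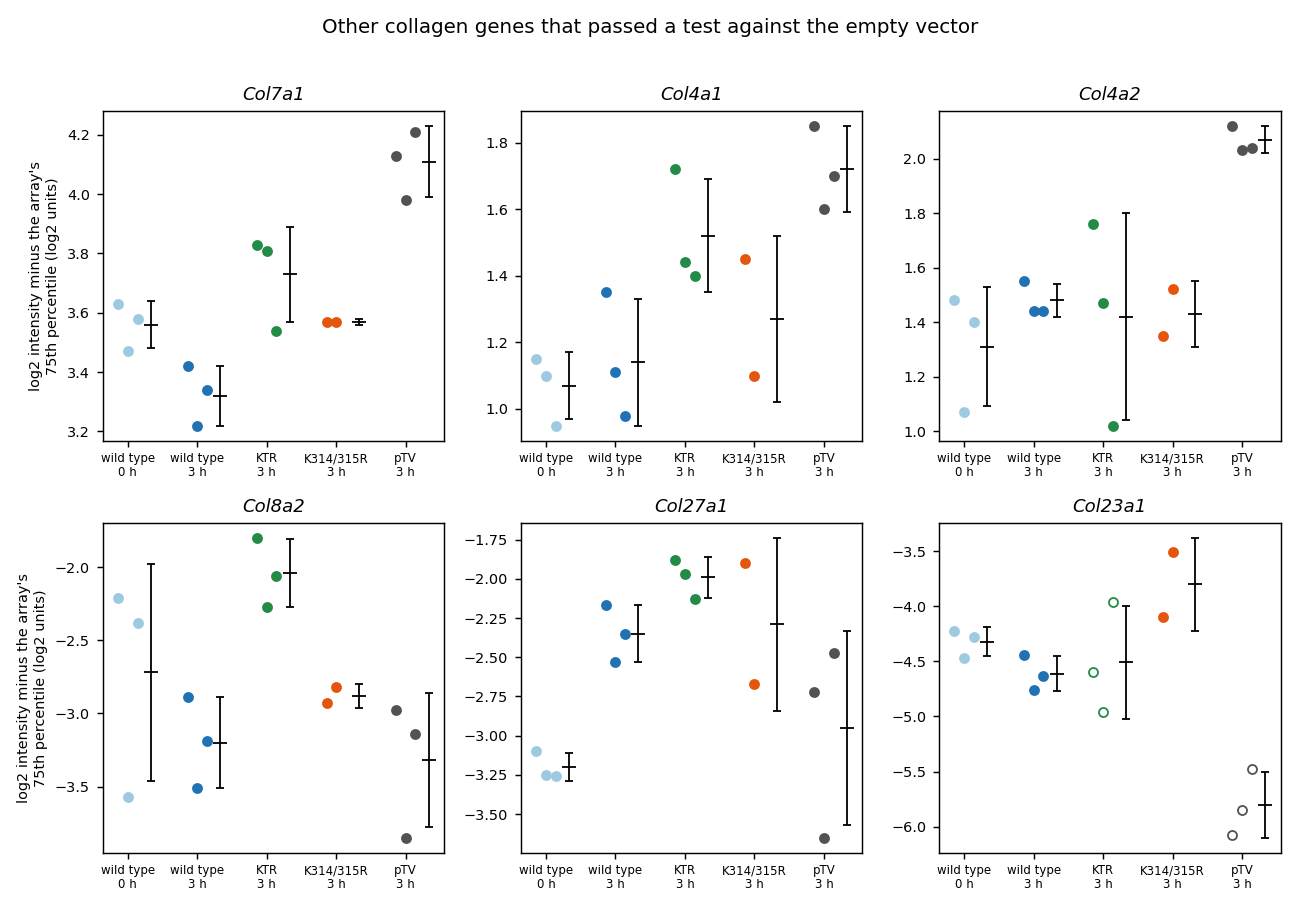
Levels of Col7a1, Col4a1, Col4a2, Col8a2, Col27a1 and Col23a1 on each array (y axis, log2 intensity minus the array's 75th percentile) in the 5 groups (x axis), with the mean and SD as bars; open points mark groups in which no array was well above background. The pTV arrays are the highest for Col7a1 and Col4a2 and the lowest for Col23a1.

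**Figure D4:**
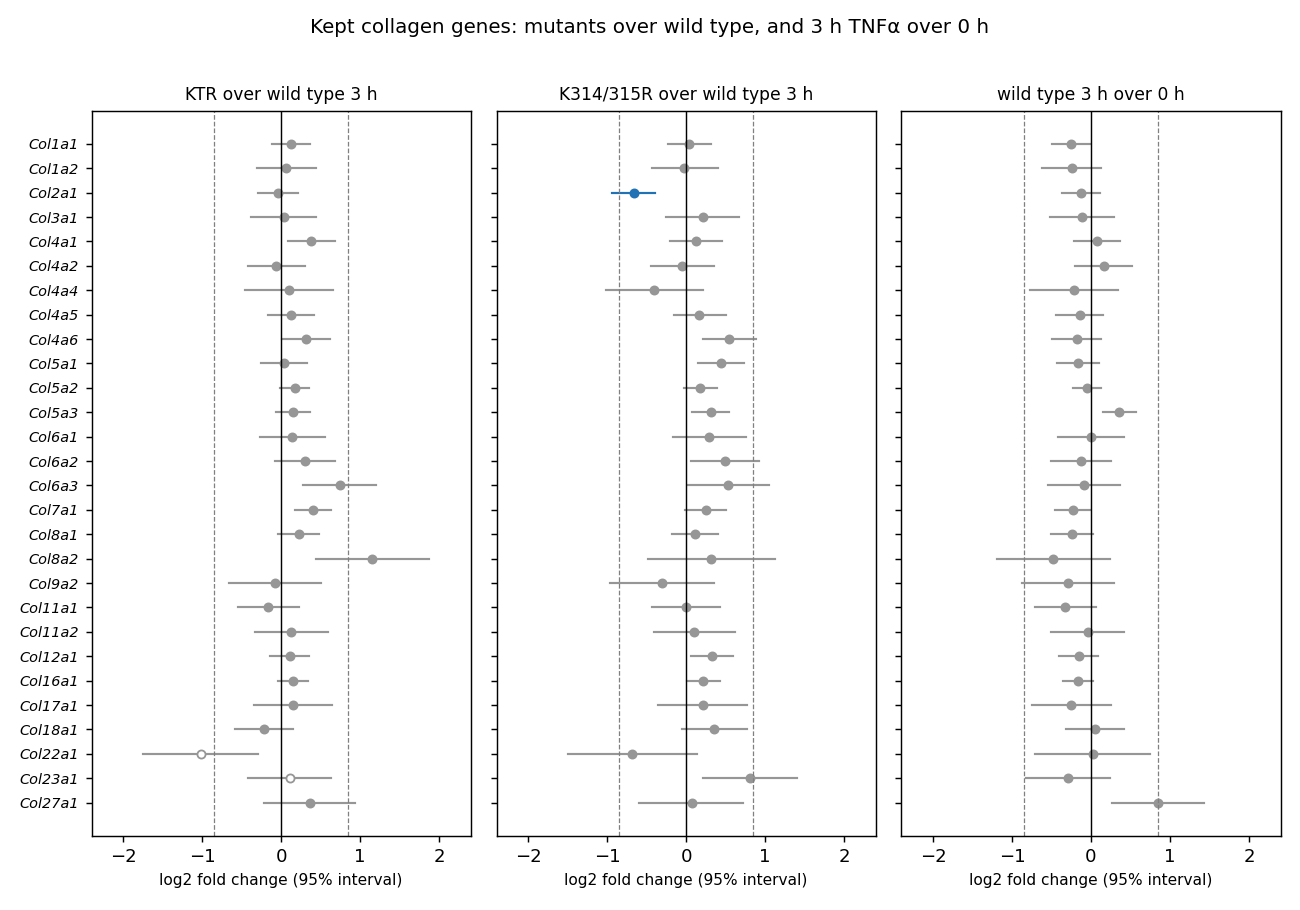
Log2 fold change with its 95% interval (x axis) for the kept collagen genes (y axis) in KTR and K314/315R over wild type at 3 h and in wild type at 3 h over 0 h, coloured as in the plot over pTV. No gene is red; Col2a1 in K314/315R (-0.66) is blue.

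Over all 5 groups, 8 of the 28 genes (28.6%) differed in the overall F-test at an adjusted p under 0.05, beside 29.7% of all tested probes. They were Col2a1, Col4a1, Col4a2, Col5a3, Col7a1, Col22a1, Col23a1 and Col27a1. With the replicate number as a block, 20 of the 28 (71.4%) passed, beside 50.2% of all probes.

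Genes that make, cleave, bind or sense collagen were read from lists of 72 genes, of which 62 were tested. In wild type over pTV, 3 of the 62 were called higher (Tgm2, Dcn and Tgfbr3) and 3 lower (Adamts3, Thbs2 and Ctgf), where 4.23% and 2.03% of all probes were. None of the 18 tested genes of collagen modification and folding, such as the prolyl and lysyl hydroxylases and the collagen chaperone Serpinh1, was called, and their median log2 change was 0.16. Tgm2, a transglutaminase that cross-links matrix proteins, was 2.1-fold higher in wild type (adjusted p = 4.7e-04), and Adamts3, a protease that removes the amino-terminal propeptide of procollagen, was 2.74-fold lower (adjusted p = 3.8e-04). Of the proteins that bind fibrils, Dcn (decorin) was 2.17-fold higher (adjusted p = 0.00109) and Thbs2 (thrombospondin-2) 2.48-fold lower (adjusted p = 7.1e-04). In the TGF-beta list, Tgfbr3 was 2.09-fold higher (adjusted p = 1.6e-04) and Ctgf, a matrix protein that promotes collagen synthesis, was 4.64-fold lower (adjusted p = 3.4e-06). With normexp background correction Thbs2 and Ctgf passed, but Tgm2 (adjusted p = 0.0961), Dcn (0.288), Tgfbr3 (1) and Adamts3 (1, log2 change -0.55) did not.

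Ctgf measured 4.54, 4.69 and 4.99 in wild type at 3 h, 4.78, 5.08 and 4.88 in KTR, 4.97 and 4.71 in K314/315R, 3.80, 3.89 and 4.09 in wild type at 0 h, and 7.30, 6.60 and 6.96 in pTV. Every pTV array was thus above every array of cells with p65, the reverse of Col5a3. Lox, the lysyl oxidase that starts the cross-linking of fibrils, measured 2.93, 2.38 and 2.62 in wild type, 3.08, 2.91 and 2.70 in KTR, 3.27 and 3.14 in K314/315R and 2.02, 1.59 and 1.86 in pTV. It was called higher than in pTV in KTR (2.11-fold, adjusted p = 8.0e-04) and in K314/315R (2.6-fold, adjusted p = 2.5e-04), and in wild type it was 1.77-fold higher (adjusted p = 0.00472), inside the limit.

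In KTR over pTV, 4 of the 62 genes were called higher (Lox, Tgm2, Itga11 and Tgfbr3; 3.93% of all probes) and 3 lower (Adamts3, Thbs2 and Ctgf; 1.94%), and in K314/315R over pTV 6 were higher (Adamts2, Lox, Tgm2, Dcn, Itga11 and Tgfbr3) and 3 lower (Pcolce2, Itga1 and Ctgf), where 5.07% and 6.43% of all probes were. With normexp background correction Lox (adjusted p = 0.0935), Itga11 (0.135), Tgfbr3 (0.881) and Adamts3 (0.613) did not pass in KTR, nor did Adamts2 (0.578), Dcn (0.0683), Tgfbr3 (0.919), Pcolce2 (0.127) and Itga1 (0.783) in K314/315R. Without K314/315R replicate 1, which leaves 1 array in that group, the log2 change of Pcolce2 was -0.90. Itga11, a subunit of a collagen-binding integrin, had a value on 1 K314/315R array only (3.35, against a mean of 2.05 in pTV). Its place among the genes called higher in K314/315R rests on that array and is not a test of the group. Without the limit on the fold, 8 of the 18 modification and folding genes were higher in K314/315R than in pTV, beside 12.5% of all probes, and 4 were higher in KTR, beside 9.1%, with none lower in either. P4ha1, a prolyl hydroxylase subunit, was 1.65-fold higher in K314/315R (adjusted p = 0.00254) and 1.42-fold in KTR (adjusted p = 0.0157).

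Over wild type at 3 h, none of the 62 genes was called in KTR, where 0.167% of all probes were. At an unadjusted p under 0.05 there were 5 of the 62, beside 9.19% of all probes. In K314/315R 3 were called, where 1.19% of all probes were: Adamts3 and Thbs2 higher and Itga1, a collagen receptor subunit, lower. Adamts3 measured -2.33 and -1.89 in K314/315R, within the range of pTV (-2.00, -2.49 and -1.88), and -3.61, -3.78 and -3.35 in wild type and -3.63, -3.49 and -3.48 in KTR. It was 2.77-fold higher in K314/315R than in wild type (adjusted p = 0.0165), which did not pass with normexp background correction (0.84), in a fit of the groups compared alone (0.0619), or without wild type replicate 2 (0.0577) or K314/315R replicate 2 (0.112). Thbs2 was 1.95-fold higher (adjusted p = 0.0497) and did not pass under 17 of 22 other settings, among them leaving out any single array other than KTR replicates 2 and 3 (adjusted p from 0.0586 to 0.251). Itga1 was at least 2.82-fold lower (adjusted p = 0.04) and did not pass under 14 of 21, including leaving out either K314/315R array (adjusted p = 0.184 and 0.123), any wild type 3 h array (0.0548 to 0.109), KTR replicate 1 (0.0521) or 2 (0.0514), pTV replicate 2 (0.0582) or wild type 0 h replicate 3 (0.0636). Adamts2, Adamts3 and Thbs2 were called lower in KTR than in K314/315R (1.85-, 2.69- and 3.04-fold), none of which passed without K314/315R replicate 2 (adjusted p = 0.0717, 0.0843 and 0.0597), nor Adamts2 without K314/315R replicate 1 (0.0856), and none with normexp background correction (adjusted p from 0.325 to 1).

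After 3 h of TNFα in wild type cells, Aspn (asporin), a small proteoglycan that binds collagen, was 2.3-fold lower (adjusted p = 0.00149; log2 change -0.23, adjusted p = 0.8 with normexp background correction) and Itga11 1.96-fold lower (adjusted p = 0.0372). Aspn measured -1.58, -1.99 and -1.94 at 0 h and lay between -3.22 and -2.71 in all groups treated with TNFα, with or without p65. Itga11 did not pass under 10 of 22 other settings, among them leaving out wild type 3 h replicate 2 (adjusted p = 0.141) or 3 (0.101) or any wild type 0 h array (0.0533 to 0.14), and KTR replicate 1 (0.0518) or pTV replicate 3 (0.0542).

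**Figure D5:**
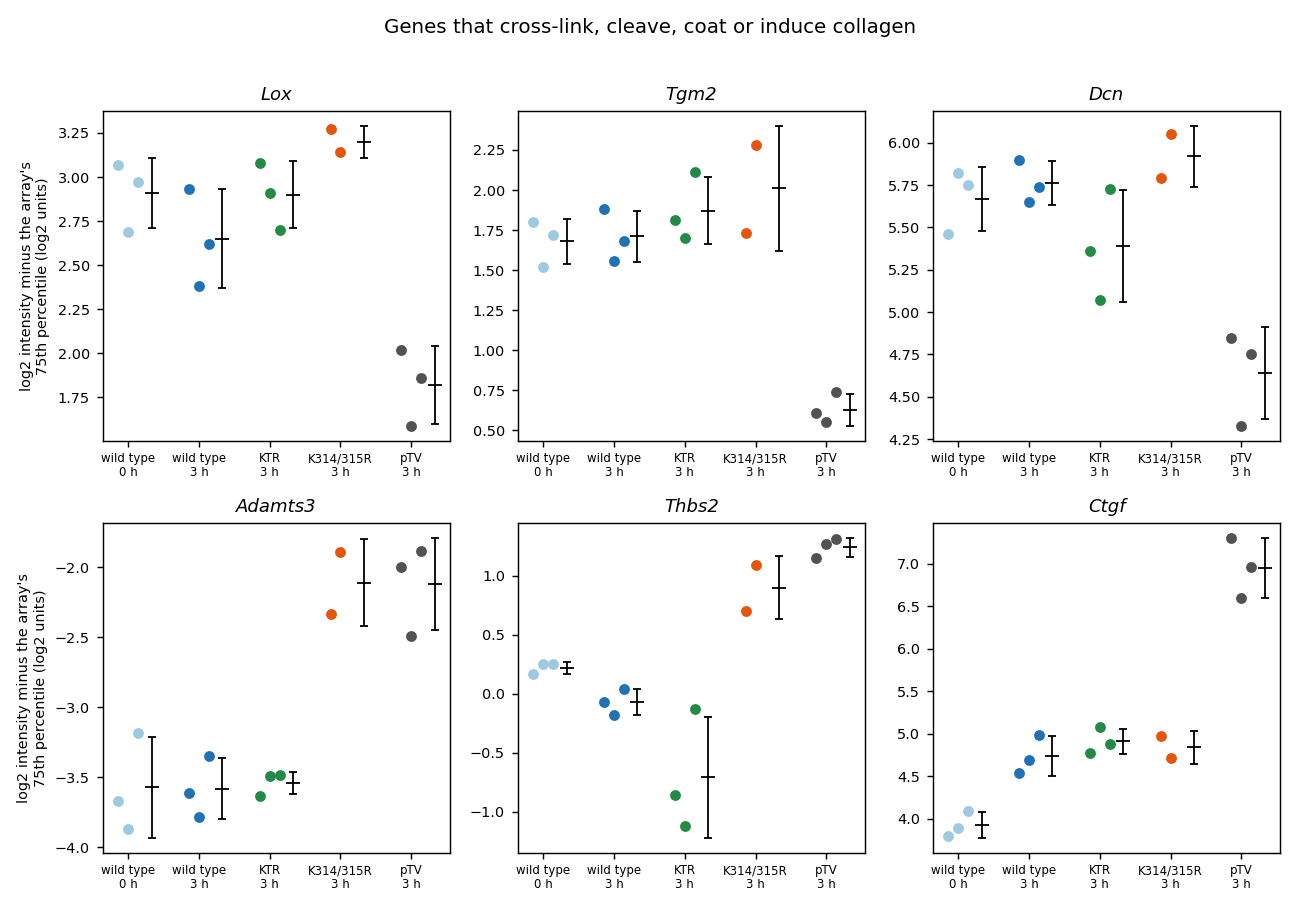
Levels of Lox, Tgm2, Dcn, Adamts3, Thbs2 and Ctgf on each array (y axis, log2 intensity minus the array's 75th percentile) in the 5 groups (x axis), with the mean and SD as bars. The pTV arrays are the lowest for Lox, Tgm2 and Dcn and the highest for Ctgf, and K314/315R lies with pTV for Adamts3.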

How the data were processed

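Total RNA of 14 samples was hybridised to one-colour Agilent Whole Mouse Genome 4x44K arrays. The authors deposited scanner files made with Agilent Feature Extraction, version 9.1 per the labels. Per the file headers it was 9.1.3.1 for both K314/315R arrays and 9.1.1.1 for the other 12. The processed intensity per spot in these files is background-subtracted by that software. The authors also deposited a table of values (intensity as well), which for probes with a single spot equals the scanner's signal times 1 factor per array. The study's own normalisation in its analysis software was not repeated.

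Processed intensities were averaged over spots of a probe without outlier flags, divided by each array's 75th percentile and taken as log2. Of 41174 probes, 22172 had at least 1 group whose arrays all lay well above background and were tested with limma 3.58.1 (R 4.3.3; lmFit and eBayes, two-sided, all 14 arrays in 1 fit), with Benjamini-Hochberg adjustment over all of them. A call needed an adjusted p under 0.05 and over 1.8-fold, the limit of the study's methods. "At least N-fold" sets the brighter group against the lowest signal above background in a group with no array above it. Between 49.9% and 57.7% of probes were well above background per array, and the number of arrays limits the precision. The steps were tested on simulated data.

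The collagen genes and the gene lists were chosen with earlier results of these data known. The rule for named genes asked for array values of called genes, their partner chains and Col1a1, Col1a2, Col3a1, Col5a1 and Col5a2, and for at most 3 called genes of the pathway lists each way in a comparison. Array values are printed for the groups compared, and more pathway genes than the rule asks are named over pTV. Col7a1, Col4a1, Col4a2, Col6a3, Col2a1 and Col18a1, the second probes and further pathway genes were named after their values were seen.

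Replicate numbers match slides 1 to 3. Deviations from the group means correlated at 0.308 to 0.613 in the 18 pairs of samples with the same number on these slides and at -0.510 to 0.0954 in the 36 other pairs, so the numbers pair these samples. In pairs with a K314/315R array the correlations were -0.101 to 0.411 at the same number and -0.416 to 0.416 at another. These ranges overlap, so no pairing by number is seen for the K314/315R arrays. Alternatives were other background corrections, normalisations, filters, blocks, call rules and probe summaries and leaving out each array. The result of 1 gene of the pathway lists is not reported here.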

Additional observations from a re-analysis of the deposited data

How the results depend on the processing

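Col5a3 was called in all 3 comparisons with pTV under every alternative that could be run for it. The number of collagen genes called higher fell to 1 (wild type, KTR and K314/315R over pTV) with normexp background correction, where 1 gene differed among the 5 groups, and to 1 (wild type and K314/315R over pTV) when probes had to be well above background on all 14 arrays. Quantile normalization gave 1 gene higher in K314/315R over wild type and 1 lower in KTR over K314/315R. Without a filter on dim probes, which moved the median of all probes in wild type over pTV from -0.03 to -0.15, 2 genes were higher in KTR over wild type, 1 in KTR over K314/315R, and 5 differed among the groups. With the replicate block, 1 gene was higher in each of KTR over wild type, K314/315R over wild type (Col23a1, 0.92, adjusted p = 0.0458) and 3 h over 0 h, and 20 differed among the groups. The Col23a1 result and the count of 20 rest on pairing the K314/315R arrays by number, which the correlations do not show. The block on slides 1 to 3 only, chosen after seeing the data, gave 1 higher in KTR over wild type and 1 in 3 h over 0 h. The slide as a random block gave 1 and 1, with 14 differing among the groups, and a fit of only the 2 groups compared gave 1 higher at 3 h over 0 h. An unadjusted p gave 1 higher and 1 lower in KTR over wild type, 1 higher at 3 h over 0 h and 16 differing among the groups. With no limit on the fold, 3 were lower in wild type over pTV, 1 in K314/315R over wild type, 2 in KTR over pTV and 4 in K314/315R over pTV, and 8 were higher in K314/315R over pTV and 1 in KTR over K314/315R. With the mean of all tested probes, 1 gene was lower in K314/315R over pTV and 1 higher in KTR over K314/315R, and the signs of Col4a6 (-0.37) and Col5a1 (-0.04) in K314/315R over pTV turned. Leaving out 1 array gave 1 to 3 genes higher in KTR over pTV (1 without KTR replicate 1 or 3 or pTV replicate 2), 0 to 1 lower in KTR over K314/315R (1 without KTR replicate 3) and 0 to 1 higher at 3 h over 0 h (1 without pTV replicate 2). The counts of genes differing among the groups are set beside the share of all probes only for the main fit (29.7%) and the replicate block (50.2%). For the other settings that share is not given, so those counts do not show whether collagen genes stand out. Where no alternative's construction shows it, the cause was not tested. Dim probes limit Col22a1 and Col23a1, and slide 4 and its software version limit every K314/315R value.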
